A study of Mus musculus with 4 samples.

Results

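Collagens are the proteins of extracellular fibres and sheets, and each collagen molecule is a triple helix of 3 alpha chains that are encoded by separate genes or by 1 gene. This account covers the genes whose symbol has the form Col, a number, a and a number, as in Col6a1. Of the 54752 gene IDs measured, 43 have such a symbol, 11 for chains of fibrillar collagens and 32 for chains of other types. Col17a1, whose product sits in the hemidesmosome of the keratinocyte, was left out by the rule. RNA from the epidermis of 4 C57BL/6 mouse pups was sequenced at postnatal day 0, from 2 Skiv2l ctl and 2 Skiv2l fl/fl K14-Cre littermates (Skiv2lf/fl;K14-Cre in the sample labels), the latter also called knockouts here. SKIV2L is the helicase that feeds RNA to the cytoplasmic exosome. A constitutive Cre driven by the keratin 14 promoter acts on the floxed Skiv2l alleles, and the paper calls this knockout keratinocyte-specific. It reports depletion of SKIV2L protein by Western blot in the epidermis of such pups at postnatal day 0. Pups of this genotype die soon after birth. The name Skiv2l ctl covers pups with Skiv2l fl/+ K14-Cre and pups without Cre that carry 1 or 2 floxed alleles (Skiv2l fl/+ or Skiv2l fl/fl), and which of these each control pup was is not given in the sources used here.

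Fibrillar collagens, such as types I, III and V, make the banded fibres of the dermis and are made mainly by fibroblasts. The basement membrane under the epidermis contains sheets of type IV collagen, the multiplexin type XVIII and anchoring fibrils of type VII, and keratinocytes make part of it. Fibril-associated collagens with interrupted triple helices (FACIT) lie on the surface of fibres, and type VI forms beaded filaments. A chain has to be hydroxylated, folded, secreted and trimmed before it assembles, and cells sense collagen through integrins and discoidin domain receptors.

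The level of each gene is given in FPKM, a fragment count that the authors corrected for transcript length and library size, so levels of different genes can be compared per length. Differences are log2 fold changes of FPKM + 1, Skiv2l fl/fl K14-Cre against Skiv2l ctl, from a limma fit over 13609 protein-coding genes above FPKM 0.5 in at least 1 library, and a gene is called where its Benjamini-Hochberg adjusted p is under 0.05. The added 1 makes the fold changes of weakly expressed chains smaller than the ratios of their FPKM. Depth, read as coverage divided by FPKM (aligned gigabases if both units have their usual meaning), was between 5.843 and 6.274 in the 4 libraries. Skiv2l itself was at 19.3 and 19.1 FPKM in the controls and at 10.9 and 8.56 in Skiv2l fl/fl K14-Cre, so that both knockout libraries were below both controls and neither was near 0. The median log2 fold change of the 13609 genes was -0.20, which is the shift against which the collagen values are to be read. It was -0.03 after the libraries were scaled to a common median and -0.05 after quantile normalization.

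Each library comes from a different pup, and the fits measure the spread between 2 pups per genotype. In RNA of a whole tissue, fewer cells of a type and less RNA per cell cannot be told apart. All 9 keratinocyte markers checked, Krt5, Krt14, Krt1 and Krt10 among them, were above FPKM 0.5, and their FPKM summed to between 25910 and 29690, with 3 called higher and 3 lower. Of 12 fibroblast markers that are not collagens, 4 were above 0.5 in any library (Dcn, Fbln1, Thy1 and Pdgfra), while Pdgfrb, Lum, Twist2, Prrx1 and the other 4 were at or below it. The 12 summed to 123 and 125 FPKM in the controls and to 70.5 and 75.9 in Skiv2l fl/fl K14-Cre, with 1 called lower (Dcn) and 0 called higher, and 8 of the 12 had the lower mean in the knockouts. Markers of endothelium summed to between 0.540 and 1.11 FPKM, those of skeletal muscle to between 0.334 and 1.05, those of adipocytes to at most 0.0446, those of cartilage to between 0.377 and 0.964 and those of the dermal papilla to between 1.10 and 1.68. Markers of pericytes and smooth muscle summed to between 47.7 and 56.5 FPKM. Most of that sum came from Notch3, at between 35.66 and 42.34 FPKM, and Cspg4, at between 7.931 and 11.08. Acta2 reached 8.043 FPKM in knockout replicate 1, and Rgs5, Kcnj8, Myh11 and Des did not exceed 0.1602 in any library. Markers of melanocytes summed to between 45.3 and 60.9 FPKM and those of Schwann cells to between 15.4 and 23.0, with 1 called higher in each of these 2 lists (Tyrp1 and Mbp). Leukocyte markers summed to 20.3 and 22.2 FPKM in the controls and to 15.0 and 12.2 in the knockouts, and erythroid markers to 80.6 and 74.6 and to 37.5 and 47.7, with 2 called lower in each list. The part of these cells in the collagen values was not tested.

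The collagen chains that passed the test in the knockout epidermis were lower. Of the 43 genes, 25 were above FPKM 0.5 in at least 1 library, 7 of the 11 fibrillar chains and 18 of the 32 others. By library the number was 23 and 24 in controls against 23 and 19 in knockouts. Among these 25, 11 were called lower and 0 higher, where 34.4% of all tested genes were called, 25.4% lower and 8.99% higher. At an unadjusted p below 0.05 in limma, 14 were lower and 1 was higher. Of all 13609 tested genes, 4860 were lower and 1617 higher at that threshold. In 16 of the 25 both knockout libraries lay below both controls, where 55.3% of all tested genes did so, and in 2 (Col27a1 and Col18a1) both lay above, where 18.2% did so. The median log2 fold change of the 25 was -0.43, beside -0.20 for all tested genes. Without the filter the median of the 43 was -0.07, beside -0.04 for all 21921 protein-coding genes. The filter lets a gene in through either group, and Col9a3 passed it through the control libraries alone and Col26a1 through 1 knockout library alone. Under scaling to a common median, which moved the calls over all genes from 1223 higher and 3455 lower to 1894 higher and 1623 lower, 10 collagen genes were called lower and 2 higher, these being Col27a1 and Col18a1. Exons of Col5a1, Col4a2, Col9a3 and Col10a1 overlap those of a gene on the opposite strand, and the reads of the pair cannot be told apart if counting ignored strand. Those of Col20a1, Col3a1 and Col7a1 overlap a gene on the same strand, a microRNA gene for Col3a1 and Col7a1, and there strand does not separate the reads.

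**Figure D1:**
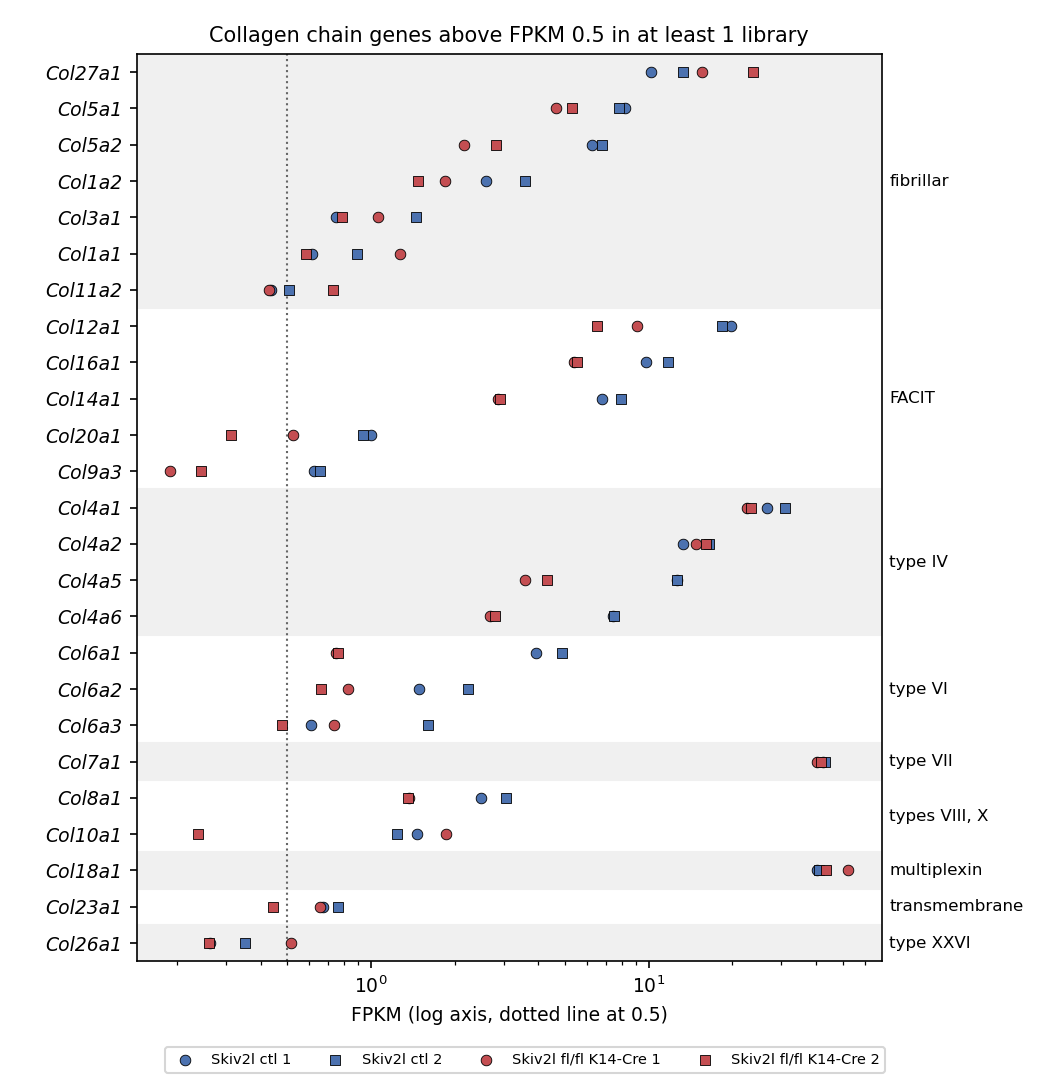
FPKM (log axis) of the 25 collagen chain genes above 0.5 (dotted line) in at least 1 library, grouped by type of chain. Blue symbols are the 2 Skiv2l ctl libraries and red symbols the 2 Skiv2l fl/fl K14-Cre libraries, circles for replicate 1 and squares for replicate 2. Col7a1 and Col18a1 are the 2 highest in each library, and red lies left of blue for 16 genes.

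The X-linked pair Col4a5 and Col4a6 changed together, and their promoters are shown because the 2 genes start next to each other. They lie head to head with 1308 bases between their starts. Both encode chains of type IV collagen, and the alpha 5 and alpha 6 chains assemble into 1 network of the epidermal basement membrane. Also shown are the promoters of Col5a1 and Col8a1, called lower as well, and of Col7a1, which did not pass the test. The sequences are those of RefSeq on GRCm38.p6, 5′ to 3′ on the strand of the gene, and end at the base before its annotated start. The windows are chrX:141474077-141474326 on the minus strand for Col4a6, chrX:141475169-141475384 on the plus strand for Col4a5, chr2:27886175-27886424 on the plus strand for Col5a1, chr16:57754738-57754987 on the minus strand for Col8a1 and chr9:108953336-108953585 on the plus strand for Col7a1. Capitals mark the GC box (GGGCGG or CCGCCC) and the CCAAT box (CCAAT or ATTGG), searched on both strands, as was the TATA box (TATAAA or TTTATA), which none of the 5 contains.
Col4a6: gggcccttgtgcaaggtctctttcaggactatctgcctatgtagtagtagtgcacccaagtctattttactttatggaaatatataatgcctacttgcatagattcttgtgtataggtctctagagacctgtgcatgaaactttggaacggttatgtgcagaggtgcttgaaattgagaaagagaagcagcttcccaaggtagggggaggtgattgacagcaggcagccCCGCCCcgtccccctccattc
Col4a5: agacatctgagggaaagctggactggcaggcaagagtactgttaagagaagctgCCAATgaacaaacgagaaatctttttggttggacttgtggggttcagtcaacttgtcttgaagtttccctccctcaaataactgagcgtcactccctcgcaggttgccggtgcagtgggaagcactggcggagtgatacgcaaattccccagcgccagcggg
Col5a1: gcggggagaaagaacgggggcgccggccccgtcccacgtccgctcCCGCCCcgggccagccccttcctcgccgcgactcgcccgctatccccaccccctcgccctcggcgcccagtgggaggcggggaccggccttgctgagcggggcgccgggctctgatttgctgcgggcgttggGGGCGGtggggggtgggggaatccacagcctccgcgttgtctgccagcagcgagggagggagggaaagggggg
Col8a1: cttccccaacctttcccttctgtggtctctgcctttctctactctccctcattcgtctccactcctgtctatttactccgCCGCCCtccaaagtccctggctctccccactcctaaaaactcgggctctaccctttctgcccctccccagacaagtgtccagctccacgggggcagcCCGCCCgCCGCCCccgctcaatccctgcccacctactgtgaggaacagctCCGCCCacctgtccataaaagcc
Col7a1: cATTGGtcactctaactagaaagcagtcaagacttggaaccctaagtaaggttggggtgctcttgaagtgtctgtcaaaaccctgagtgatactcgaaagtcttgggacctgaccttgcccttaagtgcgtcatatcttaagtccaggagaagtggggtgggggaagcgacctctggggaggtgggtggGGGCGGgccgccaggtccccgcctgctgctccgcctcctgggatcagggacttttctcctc

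The Col4a6 stretch shown holds 1 GC box and the Col4a5 stretch 1 CCAAT box. The Col8a1 stretch has 4 GC boxes, that of Col5a1 2, and that of Col7a1 1 GC box and 1 CCAAT box. The full RefSeq window of Col4a5, chrX:141475169-141475468, also holds a GC box, and the counts below use full windows. Of the 43 genes, 34 had a RefSeq promoter window of 250 bases before the start and 50 after it, with 37 windows in all, and 8 of the 11 chains called lower were among them. A GC box was present in 62.2% of these collagen windows and in 35.7% of the 32851 windows of all genes. The CCAAT box was present in 32.4% and 37.4% and the TATA box in 10.8% and 13.6%. Among windows of chains called lower, 8 of 9 held a GC box, with overlapping windows of Col6a2 among them. Among windows of tested chains not called, 7 of 12 did. These counts describe the letters in the windows.

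Of the fibrillar chains, Col5a1, Col5a2 and Col1a2 were called lower, and Col27a1 had the highest level of them in each library. That is 3 of 7 tested chains called lower (42.9%, beside 25.4% of all tested genes) and 0 higher (beside 8.99%). At an unadjusted p below 0.05 in limma, 1 was higher and 3 lower, beside 1617 and 4860 of the 13609 tested genes. The median log2 fold change was -0.11, beside -0.20 for all tested genes. It turned to 0.039 over the 11 without the filter, beside -0.04 for all genes, and to 0.078 under quantile normalization, beside -0.05. Col27a1 (chr4:63214004-63334991), the chain of type XXVII collagen, which is known from cartilage, was at 10.2 and 13.2 FPKM in the controls and at 15.5 and 23.8 in Skiv2l fl/fl K14-Cre. Both knockout libraries were above both controls, and knockout replicate 2 was the highest. Its log2 fold change was 0.68 (SE 0.21, limma adjusted p = 0.053), which missed the threshold, while the ratio of mean FPKM was 1.68. The gene was called higher in 6 of 13 alternative settings, with scaling to a common median (0.88, adjusted p = 0.032) and the fit without knockout replicate 1 (0.98, adjusted p = 0.016) among them. Without knockout replicate 2, the highest library, the log2 fold change was 0.39 (adjusted p = 0.149), and the adjusted p ranged from 0.004 to 0.279 over the 13.

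Type V collagen, which sets the diameter of type I fibres, was lower in both of its expressed chains. Col5a1 (chr2:27886425-28039514) was at 8.21 and 7.80 FPKM in the controls and at 4.64 and 5.27 in the knockouts. Col5a2 (chr1:45374321-45503282) was at 6.24 and 6.77 FPKM in the controls and at 2.17 and 2.82 in the knockouts. In both genes the groups were apart by more than either group's spread. The log2 fold change was -0.60 for Col5a1 (SE 0.11, limma adjusted p = 0.011) and -1.11 for Col5a2 (SE 0.14, limma adjusted p = 0.003). Col5a1 therefore had the smaller difference, and the ratio of Col5a1 to Col5a2 FPKM was 1.32 and 1.15 in controls against 2.14 and 1.87 in knockouts. Col5a3, the remaining chain of type V, was at most at 0.119 FPKM. The call on Col5a1 was lost without control replicate 1 (-0.57) or without control replicate 2 (-0.63). Without a filter on FPKM the calls on Col5a1 (limma adjusted p = 0.065) and Col5a2 (limma adjusted p = 0.060) were both lost.

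The chains of types I and III, the bulk collagens of dermis, were weakly expressed in this epidermal RNA. Col1a2 (chr6:4504814-4541544), the alpha 2 chain of type I, was at 2.60 and 3.58 FPKM in the controls and at 1.84 and 1.48 in the knockouts. Both knockout libraries were below both controls, and the log2 fold change was -0.61 (SE 0.16, limma adjusted p = 0.033). Its partner Col1a1 was at 0.614 and 0.891 FPKM in the controls and at 1.27 and 0.585 in the knockouts, which overlap (0.12, SE 0.21, limma adjusted p = 0.682). The ratio of Col1a1 to Col1a2 FPKM was 0.236 and 0.249 in controls against 0.688 and 0.396 in knockouts. The type I molecule usually has 2 chains from Col1a1 for 1 from Col1a2. Col3a1, the chain of type III, was at 0.746 and 1.46 FPKM in the controls and at 1.06 and 0.787 in the knockouts, and the groups overlapped (-0.11, SE 0.20, limma adjusted p = 0.684). The fibroblast markers also had the lower sum in the knockouts, mostly through Dcn (means of 59.8 and 19.2 FPKM), while Pdgfra was above both controls in both knockouts (means of 0.275 and 0.729 FPKM), and their part in the Col1a2 value was not tested. The call on Col1a2 held in 6 of 13 alternatives and was lost under median scaling (-0.47, adjusted p = 0.078), without control replicate 1 (adjusted p = 0.071), without control replicate 2 (adjusted p = 0.177) and without knockout replicate 2 (adjusted p = 0.111).

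Col11a2, a chain of type XI collagen of cartilage, was at 0.437 and 0.508 FPKM in the controls and at 0.428 and 0.728 in the knockouts (0.09, SE 0.16, limma adjusted p = 0.670). Col2a1, Col11a1 and Col24a1 did not exceed 0.0614 FPKM in any library and were not tested. The fibrillar chains other than Col27a1 summed to 19.0 and 21.1 FPKM in the controls and to 11.7 and 11.8 in the knockouts. With Col27a1 the sum of the 11 was 29.2 and 34.4 FPKM in controls against 27.1 and 35.6 in knockouts, so that the groups overlapped (ratio 0.988, exact permutation test, two-sided p = 1). Col27a1 made up 34.9% and 38.5% of the fibrillar FPKM in controls against 57.1% and 66.8% in knockouts.

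**Figure D2:**
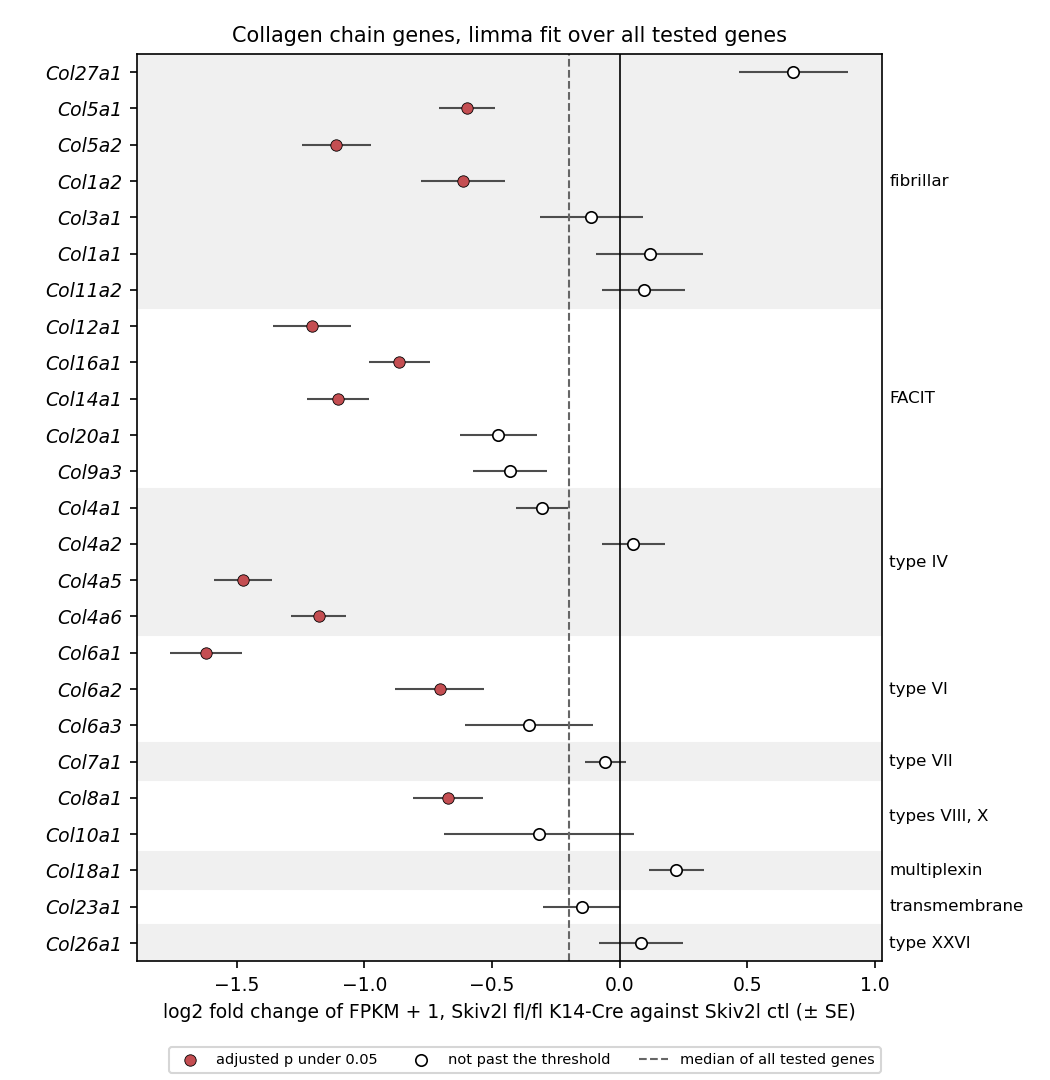
Log2 fold change of FPKM + 1, Skiv2l fl/fl K14-Cre against Skiv2l ctl, with its standard error, for the 25 tested collagen chain genes. Filled circles are genes with a limma adjusted p under 0.05, open circles the rest, and the dashed line is the median of all tested genes at -0.20. The 11 filled circles lie between -0.60 and -1.62, and Col27a1 at 0.68 lies furthest right.

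Among the other types, 5 of the 9 FACIT genes passed the filter. In these 5 both knockout libraries lay below both controls, as in 55.3% of all tested genes, and 3 were called lower, as were 25.4% of all tested genes. Col9a3, 1 of the 5, passed the filter through the control libraries alone, which favours a place below them. The median log2 fold change of the 5 was -0.86, beside -0.20 for all tested genes. Without the filter that of the 9 was -0.43, beside -0.04 for all protein-coding genes. Col12a1 (chr9:79598991-79718831), the type XII chain that binds type I fibres, was at 19.8 and 18.4 FPKM in the controls and at 9.09 and 6.53 in the knockouts. It had the highest level of the class in each library, and its log2 fold change was -1.21 (SE 0.15, limma adjusted p = 0.003). Col14a1 (chr15:55307750-55520803), of the related type XIV, was at 6.79 and 7.97 FPKM in the controls and at 2.87 and 2.91 in the knockouts. The knockout libraries were nearly equal, and the log2 fold change was -1.10 (SE 0.12, limma adjusted p = 0.002). Col16a1 (chr4:130047840-130099283), the type XVI chain found near the dermal-epidermal junction, was at 9.77 and 11.8 FPKM in the controls and at 5.37 and 5.53 in the knockouts, which again left the groups apart (-0.86, SE 0.12, limma adjusted p = 0.004).

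Col20a1 was at 1.001 and 0.934 FPKM in the controls and at 0.525 and 0.313 in the knockouts (-0.48, limma adjusted p = 0.055). Col9a3, a chain of type IX collagen of cartilage, was at 0.626 and 0.652 FPKM in the controls and at 0.190 and 0.244 in the knockouts (-0.43, limma adjusted p = 0.062). Neither passed the threshold, but Col20a1 was called lower with TPM (adjusted p = 0.048) and without the trend (adjusted p = 0.031), and Col9a3 without a filter (adjusted p = 0.040) and without the trend (adjusted p = 0.025). The gene whose exons Col9a3 overlaps is Tcfl5. Col9a1, Col9a2, Col19a1 and Col22a1 were at or below 0.280 FPKM in each library, Col22a1 being listed at 0 in the 4. The class summed to 38.3 and 40.0 FPKM in the controls and to 18.2 and 15.6 in the knockouts, a ratio of 0.432, and the exact two-sided permutation test gave p = 0.333, the smallest that 2 against 2 allows. The call on Col12a1 was lost without control replicate 1 (-1.15, adjusted p = 0.052) and that on Col16a1 without control replicate 2 (-0.74, adjusted p = 0.058), whereas Col14a1 was called in all 13 alternatives.

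Type IV collagen, the network of the basement membrane, changed in its minor chains. Col4a5 (chrX:141475385-141689234) was at 12.7 FPKM in both controls and at 3.58 and 4.28 in the knockouts. Col4a6 (chrX:141165403-141474076) was at 7.43 and 7.48 FPKM in the controls and at 2.67 and 2.80 in the knockouts. In both genes the control libraries were nearly equal and well above the knockouts. The log2 fold change was -1.47 for Col4a5 (SE 0.11, limma adjusted p = 0.001) and -1.18 for Col4a6 (SE 0.11, limma adjusted p = 0.001), and both were called lower in all 13 alternatives. The ratio of Col4a5 to Col4a6 FPKM was 1.70 and 1.69 in controls against 1.34 and 1.53 in knockouts.

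Col4a1 and Col4a2, whose products form the common type IV molecule of all basement membranes, lie head to head on chromosome 8 and their annotated 5′ ends overlap by 22 bases. Col4a1 (chr8:11198423-11312826) was at 26.6 and 30.9 FPKM in the controls and at 22.6 and 23.4 in the knockouts. Both knockout libraries were below both controls, and the log2 fold change of -0.30 (SE 0.10, limma adjusted p = 0.062) missed the threshold, which it passed with TPM (adjusted p = 0.0325). Col4a2 (chr8:11312805-11449287) was at 13.3 and 16.4 FPKM in the controls and at 14.7 and 16.0 in the knockouts, with overlapping groups (0.05, SE 0.12, limma adjusted p = 0.756). The ratio of Col4a1 to Col4a2 FPKM was 2.0 and 1.88 in controls against 1.53 and 1.46 in knockouts, and that of Col4a5 to Col4a1 was 0.477 and 0.410 in controls against 0.158 and 0.183 in knockouts. Col4a3 and Col4a4, chains of the kidney filter, were at or below 0.453 FPKM.

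**Figure D3:**
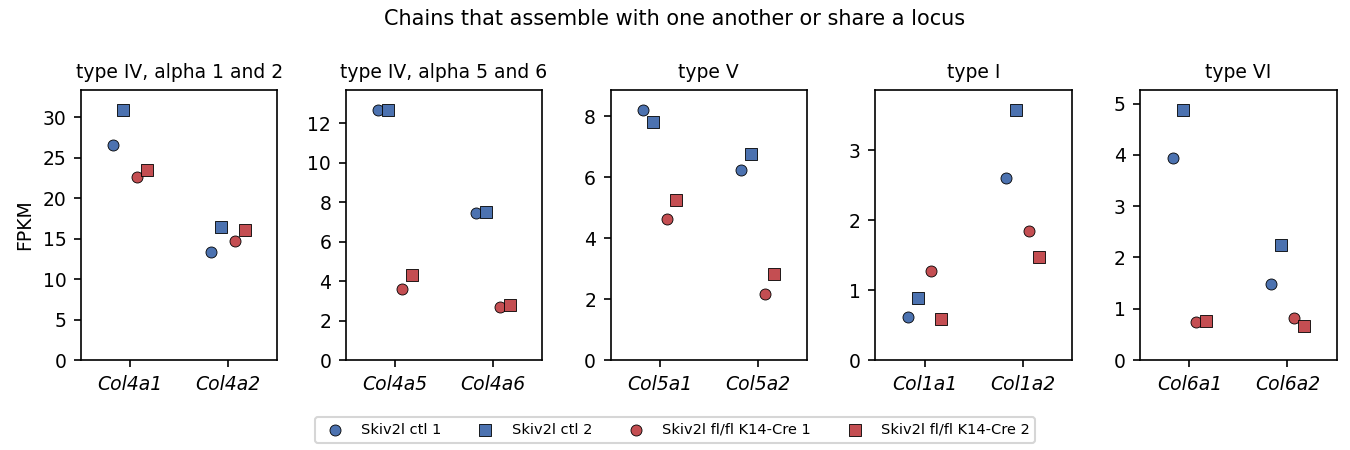
FPKM (linear axes from 0) of 5 pairs of chains that assemble with one another or share a locus. Blue symbols are the 2 Skiv2l ctl libraries and red symbols the 2 Skiv2l fl/fl K14-Cre libraries. In the pair Col4a5 and Col4a6 both genes separate by group, in the pair Col4a1 and Col4a2 Col4a2 overlaps between groups, and Col6a1 lies at 0.750 and 0.758 FPKM in both knockout libraries.

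Col6a1, the alpha 1 chain of the beaded filaments of type VI, had the lowest log2 fold change of the 25. Col6a1 (chr10:76708792-76726168) was at 3.94 and 4.87 FPKM in the controls and at 0.750 and 0.758 in the knockouts, 5.84-fold lower on average. Each control library was above each knockout library, and the log2 fold change was -1.62 (SE 0.14, limma adjusted p = 8.9e-04), and the gene was called lower in all 13 alternatives. Col6a2 (chr10:76595762-76623630), its partner in the same molecule and 85161 bases away, was at 1.49 and 2.24 FPKM in the controls and at 0.825 and 0.661 in the knockouts (-0.71, SE 0.17, limma adjusted p = 0.025). Col6a3, the large chain of the molecule, was at 0.608 and 1.61 FPKM in the controls and at 0.738 and 0.477 in the knockouts, which overlap (-0.35, SE 0.25, limma adjusted p = 0.298). Its log2 fold change was -0.70 without control replicate 1 and -0.0049 without control replicate 2. The ratio of Col6a1 to Col6a2 FPKM was 2.64 and 2.18 in controls against 0.908 and 1.15 in knockouts. Col6a4, Col6a5 and Col6a6 did not exceed 0.0602 FPKM. The call on Col6a2 was lost without control replicate 2 (-0.52, adjusted p = 0.112), without knockout replicate 1 (-0.77, adjusted p = 0.052) and without knockout replicate 2 (-0.64, adjusted p = 0.088), and under quantile normalization (-0.52, adjusted p = 0.062).

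Of the 43 genes, the 2 most abundant in each library, Col7a1 and Col18a1, were not called. Col17a1, left out by the rule, was higher than both, at 244.2 and 268.9 FPKM in the controls and at 233.1 and 256.5 in the knockouts. Col7a1 (chr9:108953586-108984875), which makes the anchoring fibrils that tie the epidermis to the dermis, was at 42.2 and 43.2 FPKM in the controls and at 40.4 and 41.7 in the knockouts. The highest knockout library was just below the lowest control, and the log2 fold change was -0.06 (SE 0.08, limma adjusted p = 0.599), turning to 0.15 under scaling to a common median and to 0.02 under quantile normalization. Col18a1 (chr10:77052178-77166548), the basement membrane chain from which endostatin is cut, was at 40.3 and 41.0 FPKM in the controls and at 52.2 and 43.4 in the knockouts. Both knockout libraries were above both controls, and the log2 fold change was 0.22 (SE 0.11, limma adjusted p = 0.153). It was called higher under scaling to a common median (0.43, adjusted p = 0.026) and without knockout replicate 2 (0.35, adjusted p = 0.039), while without knockout replicate 1 the log2 fold change was 0.091 (adjusted p = 0.425). Together Col7a1 and Col18a1 made up 37.2% and 34.9% of the summed FPKM of the 43 genes in controls against 48.9% and 45.3% in knockouts. Col15a1, the other multiplexin, was at or below 0.335 FPKM.

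Short-chain and membrane collagens were at low levels. Col8a1 (chr16:57624258-57754737), a network chain of type VIII, was at 2.49 and 3.07 FPKM in the controls and at 1.37 and 1.36 in the knockouts (-0.67, SE 0.14, limma adjusted p = 0.015). The knockout libraries were nearly equal and below both controls, and the call was lost without control replicate 1 (-0.78, adjusted p = 0.058) or without control replicate 2 (-0.56, adjusted p = 0.099). Col10a1, the type X chain of hypertrophic cartilage, was at 1.46 and 1.24 FPKM in the controls and at 1.87 and 0.238 in the knockouts, which were respectively the highest and the lowest of the 4 libraries (-0.32, SE 0.37, limma adjusted p = 0.528). Its log2 fold change was -0.92 without knockout replicate 1 (adjusted p = 0.020) and 0.29 without knockout replicate 2, and the gene that its exons overlap is Nt5dc1. Col23a1, a transmembrane chain, was at 0.672 and 0.758 FPKM in the controls and at 0.655 and 0.444 in the knockouts (-0.15, limma adjusted p = 0.459), and Col26a1 at 0.263 and 0.350 and at 0.517 and 0.261 (0.08, limma adjusted p = 0.714). Col8a2, Col13a1, Col25a1 and Col28a1 were at or below 0.173 FPKM.

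Summed over the 43 genes, thus without Col17a1, collagen FPKM was 222 and 241 in controls against 189 and 188 in knockouts, a ratio of 0.814. The 32 chains that are not fibrillar gave 193 and 207 FPKM in controls against 162 and 152 in knockouts, a ratio of 0.787 (exact two-sided permutation test, p = 0.333, the smallest possible). Among them 8 of 18 tested chains were called lower (44.4%, beside 25.4% of all tested genes) and 0 higher (beside 8.99%). At an unadjusted p below 0.05 in limma, 11 were lower and 0 higher, beside 4860 and 1617 of the 13609 tested genes. Among these 11 is Col9a3, which passed the filter through the control libraries alone. The median log2 fold change was -0.45, beside -0.20 for all tested genes. The type IV genes summed to 60.2 and 67.8 FPKM in the controls and to 44.2 and 46.7 in the knockouts, and the type VI genes to 6.10 and 8.79 and to 2.33 and 1.93. By rank, Col12a1 was the fourth chain in both controls and the sixth in both knockouts, while Col27a1 was the seventh and the sixth in controls against the fourth and the third in knockouts. The fibrillar and the other chains were not compared with each other by a test.

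**Figure D4:**
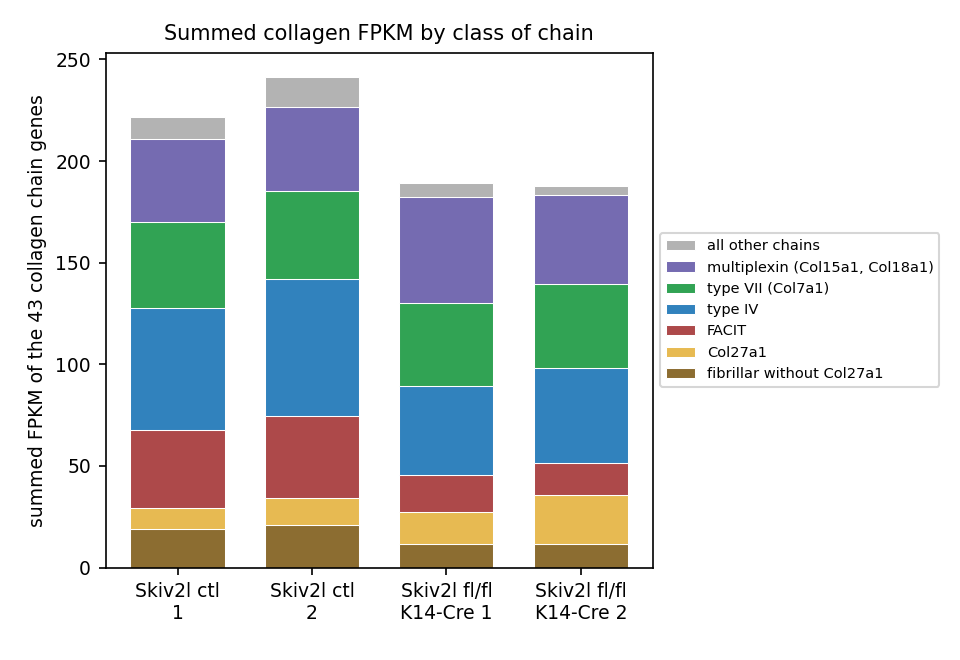
Summed FPKM of the 43 collagen chain genes in each library, stacked by class of chain from 0. The 2 Skiv2l ctl bars reach 222 and 241 and the 2 Skiv2l fl/fl K14-Cre bars 189 and 188, with smaller FACIT and type IV blocks and a larger Col27a1 block in the knockouts.

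The genes that make collagen were called higher and lower at shares near those of all tested genes. Of 32 genes for the synthesis and processing of collagen, 23 passed the filter, 3 were called higher and 5 lower (13% and 21.7%, beside 8.99% and 25.4% of all tested genes). Their median log2 fold change was -0.06, beside -0.20 for all tested genes. It turned to 0.082 under median scaling, beside -0.03, and to 0.095 under quantile normalization, beside -0.05. Adamts14, a protease that trims the amino-terminal propeptide of procollagen, was at 19.8 and 20.7 FPKM in the controls and at 3.37 and 4.36 in the knockouts (-2.13, SE 0.13, limma adjusted p = 2.9e-04). Both knockout libraries were far below both controls, while the related Adamts2 and Adamts3 were at or below 0.109 FPKM. In the same list, called lower were Tll1 (-0.68), a protease of the carboxy-terminal propeptide, P3h3 (-0.65) and Crtap (-0.51) of prolyl 3-hydroxylation, and Plod1 (-0.64), a lysyl hydroxylase. Called higher were Fkbp10 (1.15), a prolyl isomerase of the endoplasmic reticulum at 2.46 and 2.84 FPKM in controls against 8.15 and 6.18 in knockouts, P4hb (0.54), the beta subunit of prolyl 4-hydroxylase, and P3h4 (0.50). The other highly expressed members, Ppib at between 40.1 and 45.4 FPKM and Mia2, whose product helps procollagen leave the endoplasmic reticulum, at between 29.6 and 33.8, were not called. P4ha2, a catalytic subunit of prolyl 4-hydroxylase, was at 3.35 and 1.87 FPKM in the controls and at 3.54 and 12.8 in the knockouts, high in knockout replicate 2 and not called (1.16, SE 0.50, limma adjusted p = 0.118). Lox and Loxl1, the main cross-linking oxidases of dermis, did not exceed 0.195 FPKM. Without control replicate 1 the calls of this list fell to 0 higher and 1 lower, and without control replicate 2 to 1 higher and 1 lower, Adamts14 being the 1 called lower in both.

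The receptor genes that were called were higher, and the fibre-binding genes that were called were lower. Of 10 receptor genes, 8 passed the filter, 3 were called higher (37.5%, beside 8.99% of all tested genes) and 0 lower (beside 25.4%). At an unadjusted p below 0.05 in limma, 3 were higher and 0 lower, beside 1617 and 4860 of the 13609 tested genes. The median log2 fold change was 0.02, beside -0.20 for all tested genes. Ddr2, a receptor tyrosine kinase for fibrillar collagen, was at 4.92 and 5.46 FPKM in the controls and at 15.3 and 20.1 in the knockouts (1.58, SE 0.15, limma adjusted p = 0.001). Each knockout library was above each control. Itga2 (0.68) and Itgb1 (0.41), which encode the alpha 2 beta 1 integrin, were called higher as well, while Ddr1, the most abundant receptor at between 55.9 and 74.1 FPKM, was not called (-0.24, limma adjusted p = 0.109). Without control replicate 1, control replicate 2 or knockout replicate 1, Ddr2 was the 1 receptor called higher, and without knockout replicate 2 Ddr1 and Mrc2 were called lower. Of 15 genes for proteins that bind fibres, 7 passed the filter, 5 were called lower (71.4%, beside 25.4% of all tested genes) and 0 higher. At an unadjusted p below 0.05 in limma, 6 were lower and 0 higher, beside the same 4860 and 1617 of all tested genes. Tnxb, among these 6 but not called (-0.41), passed the filter through the control libraries alone, which favours a lower value in the knockouts. Dcn, which encodes the proteoglycan decorin of type I fibres and is also in the fibroblast list, was at 57.0 and 62.7 FPKM in the controls and at 16.9 and 21.4 in the knockouts (-1.60, SE 0.13, limma adjusted p = 6.8e-04). Postn (-0.93), Bgn (-0.81) and Fn1 (-0.61) were called lower, as was Sparc (-0.36), a collagen chaperone at between 48.7 and 65.9 FPKM. When control replicate 1 or control replicate 2 was left out, Dcn and Fn1 were the 2 called lower, and Sparc was not called under median scaling.

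**Figure D5:**
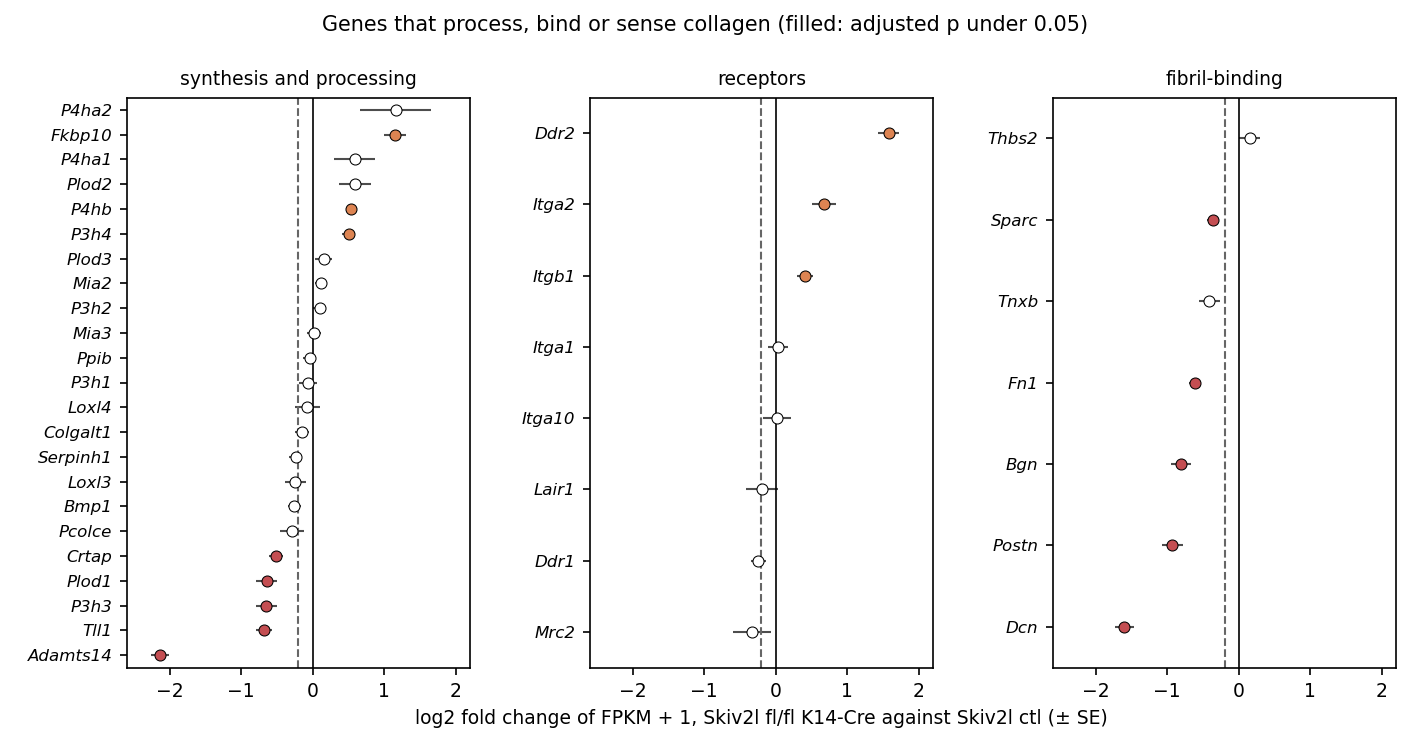
Log2 fold change of FPKM + 1, Skiv2l fl/fl K14-Cre against Skiv2l ctl, with its standard error, for the tested genes of collagen synthesis and processing (left), collagen receptors (middle) and fibre-binding proteins (right). Filled circles have a limma adjusted p under 0.05, orange higher and red lower, and the dashed line is the median of all tested genes at -0.20. Adamts14 at -2.13 and Ddr2 at 1.58 are the points furthest from 0.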

How the data were processed

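RNA of the epidermis of 4 pups was extracted on RNeasy columns and sequenced, and the authors made the tables with the Astrocyte RNASeq workflow of their institution. The build given is GRCm38, and the aligner, its version and the use of strand are not given in the sources used here. The FPKM values, as deposited, are scaled for transcript length and for the size of the library. TPM values, also deposited, have a common sum per library, and the deposited coverage signal is the mean depth per base. Counting error cannot be given, since reads were not counted here.

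FPKM was summed per gene ID. Protein-coding genes were taken from GENCODE M21 (21921), and the 13609 above FPKM 0.5 in at least 1 library entered a two-sided limma-trend fit of log2(FPKM + 1) (limma 3.58.1, R 4.3.3), adjusted over the 13609 by Benjamini-Hochberg. iDEP, the tool named in the paper, was not used here. Sums per library were compared by an exact permutation test. The groups come from the genotype labels, and the control genotypes were kept as 1 group. Same-numbered libraries did not deviate together (correlation -0.077).

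The members, the lists and the tests were chosen with earlier results of these data known. Each member was accounted for. For other lists the genes named are up to 4 called in each direction with the largest fold and the 3 with the highest level. Crtap, P4ha2, Adamts2, Adamts3, Lox, Loxl1, Mrc2, Tnxb, Tyrp1, Mbp and Pdgfra were chosen once their values were known. So were Notch3, Cspg4, Acta2, Rgs5, Kcnj8, Myh11 and Des. The alternatives were TPM in place of FPKM, 0.1 as pseudocount, a stricter filter (above 1 in 2 or more libraries) or none, median scaling and quantile normalization, all gene IDs, a fit without the trend, a replicate block, and leaving out each library. Protein sequences were not used here.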

Additional observations from a re-analysis of the deposited data

How the results depend on the processing

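With 2 pups per genotype, a fit without 1 library leaves a lone sample that is assumed to vary like the other group. Col6a1, Col14a1, Col4a5 and Col4a6 were called lower in all 13 alternatives, Col5a2 in 12, Col12a1 and Col16a1 in 11, Col5a1 and Col8a1 in 10, Col6a2 in 8 and Col1a2 in 6. In the fit without a filter, Col5a2, Col12a1, Col16a1, Col5a1, Col8a1, Col6a2 and Col1a2 were not called. No counting error is given, and the pseudocount of 1 compresses chains below 1 FPKM.

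Over all genes, 475 were called higher and 927 lower without a filter, 1894 and 1623 under median scaling, and 1917 lower under quantile normalization. Leaving out each library gave 497 to 1146 higher and 805 to 3135 lower. The cause of these changes was not tested. The unfiltered fit adjusts over 21921 genes, and the fit over all gene IDs, which adjusts over 19572, called 1219 higher and 3090 lower. Whether the replicate numbers pair animals is not given in the sources used here. With the replicate number as a block, 1264 genes were called higher and 3393 lower, and among the collagens 1 higher (Col27a1) and 11 lower.

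Fibrillar chains called higher numbered 1, Col27a1, with the stricter filter, TPM, median scaling, quantile normalization or the replicate block, and 0 to 1 when a library was left out. Those called lower numbered 0 without a filter and 1 to 3 when a library was left out. Other chains called higher numbered 1 under median scaling and 0 to 1 when a library was left out, and those called lower 10 with TPM or without the trend, 5 without a filter and 5 to 8 when a library was left out. Synthesis genes called higher numbered 1 without a filter and 5 with the replicate block, those called lower 2 without a filter and 3 under median scaling or quantile normalization, and leaving out a library gave 0 to 6 higher and 1 to 4 lower. Receptor genes called higher numbered 0 without a filter, and leaving out a library gave 1 to 3 higher and 0 to 2 lower.

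The median log2 fold change of the fibrillar chains was -0.60 with the stricter filter, and it turned to 0.039 without a filter and to 0.078 under quantile normalization, with -0.36 to 0.13 when a library was left out. That of the other chains was -0.96 with a pseudocount of 0.1, -0.71 with the stricter filter, -0.087 without a filter, -0.81 with TPM and -0.29 under quantile normalization. It was -0.63 at the lowest and -0.41 at the highest when a library was left out. Over all genes the median was -0.04 without a filter, beside -0.20 with it. The log2 ratio of the fibrillar sum, -0.02, turned to 0.20 under median scaling and lay between -0.23 and 0.17 when a library was left out. That of the other chains was -0.13 under median scaling.

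The sign turned for uncalled chains. Col7a1 was at 0.15 under median scaling and 0.018 under quantile normalization, Col3a1 at 0.078 and Col23a1 at 0.015 under quantile normalization. When a library was left out, the log2 fold change lay between -0.14 and 0.38 for Col1a1, -0.050 and 0.22 for Col26a1, -0.043 and 0.23 for Col11a2, -0.36 and 0.13 for Col3a1, -0.091 and 0.20 for Col4a2 and -0.92 and 0.29 for Col10a1.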
